A study of Oryza sativa with 44 samples.

Results

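The deposited count table lists 2103 unannotated transcripts, outside the annotated rice loci, and 129 of them were present in some groups of seedlings and missing from others. A transcript counted as on in a group at a group mean of 5 CPM or more, where CPM is its count divided by the library total and multiplied by 1000000. It counted as off at a group mean below 0.1 CPM and as low in between. The members are all unannotated transcripts that were on in at least 1 of the 15 groups and off in at least 1 other. The members were thus chosen by their mean CPM in these 15 groups, so their on and off states are given as a description, with no test. Of the 2103 transcripts, 2032 had any count and 782 reached 5 CPM in a group, so the members were 16.5% of those that reached it. Of 19838 features with a locus or unplaced sequence ID that reached 5 CPM, 1001 (5.05%) met the same rule.

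The data are 44 RNA-seq libraries from seedlings of rice (Oryza sativa) that had spent 2 weeks in nutrient solution. The knockout lines osythdf1a, osythdf2a and osythdf3a, made with CRISPR and labelled DJ, were set against the DJ wild type. The other 10 lines were labelled NIP and set against the NIP wild type. They are the CRISPR knockouts osythdf1b, osythdf2b, osythdf3b, osythdf1c, osythdf3c, osythdf4c and osythdf5c, the RNAi knockdown lines RNAi-OsYTHDC1A and RNAi-OsYTHDF2C, and the overexpression line OE-OsYTHDF1A. Each group had 3 libraries, except osythdf2a with 2. The sources used here do not give the organ, the alleles, the number of transformants per line or the promoter of the overexpression construct. Replicates are called biological in the series text without saying how they were grown, and p-values below measure the spread between these libraries.

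The targeted genes encode proteins with a YTH domain, which binds methylated adenosines in RNA, and in Arabidopsis the YTHDF type proteins take part in leaf growth. Transcripts outside annotated loci can be long non-coding RNAs, RNAs of transposable elements or coding genes that the annotation lacks. Cultivars of a crop are known to differ in whether such sequences are present and whether they are transcribed. Which of these the members are was not analysed here. The files give no name, position or sequence for them, so each is given by its ID, written without the point that the tables put before the number, and by the length in the tables, and members that belong to 1 locus could not be recognised. For a member without counts, silence and a missing or differing sequence cannot be told apart. In seedling material of an organ that is not given, neither can fewer cells of a type and less RNA per cell.

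Library totals ranged from 13541543 to 24099581 counts. The on threshold corresponded to 67.7 to 120 counts in a library and the off threshold to 1.35 to 2.41 counts. A count of 0 in a single library allows a level of up to 3 counts, which is 0.124 to 0.222 CPM and covers counting error only. Replicate 3 of osythdf3a stood apart, with 12.5% of its counts from the adjacent IDs LOC_Os09g00999 and LOC_Os09g01000, against 0.352% and 0.466% in the other libraries of the line. Counts and sums that rest on osythdf3a are given with and without it. The IDs of the targeted genes are not paired with names in the files, so the lines were not checked on their targets, and the tissue was not checked on markers.

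Over 129 members and 15 groups there were 1935 states, of which 414 were on, 684 low and 837 off. Among the off states, 347 had no count in any library of the group. The number of members on ranged from 18 in RNAi-OsYTHDF2C and OE-OsYTHDF1A to 40 in the DJ wild type. The lines osythdf1a, osythdf2a and osythdf3a had 34, 36 and 29 members on. In OE-OsYTHDF1A 71 were off, the most of any group, and the NIP wild type had 25 on and 67 off. The 4 groups labelled DJ had fewer members off, between 41 and 49, than all NIP groups except RNAi-OsYTHDC1A, which had 47 off. Without its replicate 3 osythdf3a had 30 members on and 44 off, against 29 on and 41 off with it.

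**Figure D1:**
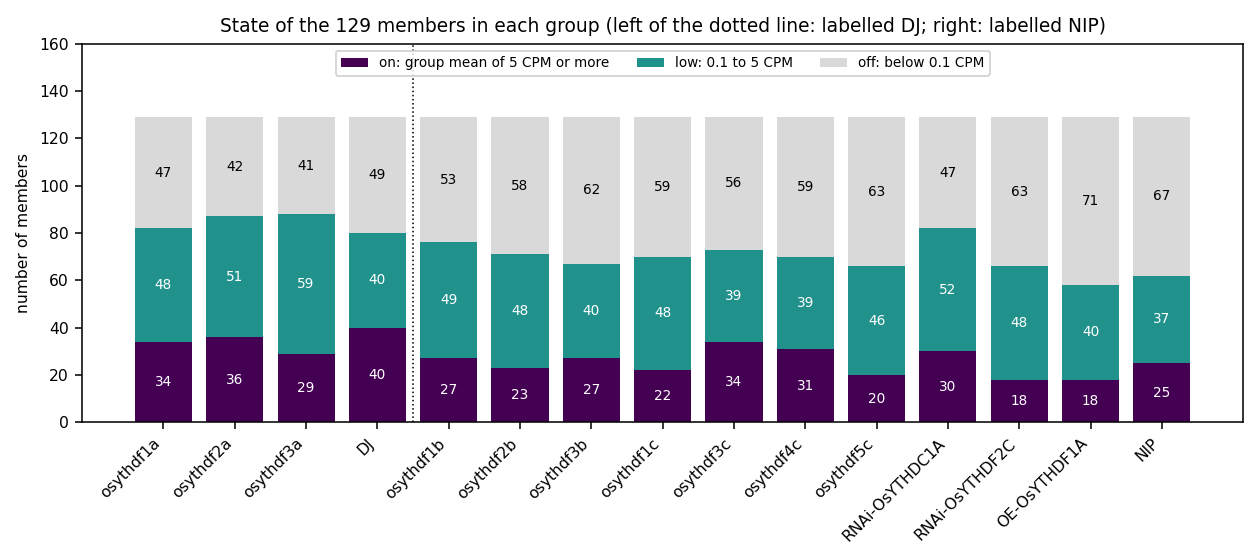
Number of members that were on (5 CPM or more), low and off (below 0.1 CPM) in each of the 15 groups, from group means. The DJ wild type has the most members on (40) and OE-OsYTHDF1A the most off (71).

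The members' summed level was 672 ± 7.1 CPM (SD, n = 3) in osythdf1a, 740 ± 9.0 CPM (SD, n = 2) in osythdf2a and 1950 ± 154 CPM (SD, n = 3) in osythdf3a, against 792 ± 17 CPM (SD, n = 3) in the DJ wild type. A single member, Novel9435, made up between 69.5% and 69.6% of the sum in each osythdf3a library. Without that member the sum in osythdf3a was 594 ± 48 CPM, below the other groups labelled DJ. Replicate 3 alone had 1773 CPM, or 538 CPM without that member, and the mean of the other 2 libraries was 2039 CPM, or 622 CPM without it. In the 10 NIP lines the mean sum ranged from 268 CPM in RNAi-OsYTHDF2C to 527 CPM in osythdf3b, against 340 ± 1.4 CPM (SD, n = 3) in the NIP wild type. In osythdf3b a single member, Novel15949, held 190 CPM of the sum. In OE-OsYTHDF1A, with a mean sum of 350 CPM, Novel28943 held 136 CPM. These sums therefore do not show a general level of the members.

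No member had a library at 5 CPM or more and another below 0.1 CPM in the same group, and in none of 43 pairs of replicate libraries did any member stand in opposite states. Over the 414 on states the coefficient of variation between libraries had a median of 7.87%, with 38.9% as the highest. The largest fold between replicates of an on state was 2.29, for Novel8751 in osythdf1c, with 2.86, 6.54 and 6.11 CPM. Its NIP libraries stood at 4.83, 4.95 and 4.62 CPM, inside that range and just under the threshold. In 42 of the 414 on states at least 1 library fell below 5 CPM. In 163 of the 837 off states at least 1 library reached 0.1 CPM, none above 0.252 CPM.

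The 129 members fell into 61 different sets of groups in which they were on. A single group was on for 55 members, 2 groups for 20, 3 groups for 16 and 4 groups for 16. Between 5 and 10 groups were on for 12 members, 11 groups for 9 and 13 groups for 1. Of the members, 20 (15.5%) had no low group, so that every group was either on or off. Of the 1001 features with a locus or unplaced sequence ID that met the rule, 42 (4.20%) had none, a difference that was not tested. With 1 CPM as the line for on, 21 members were on in a single group, 23 in 4 groups, 15 in 11 groups and 4 in 14 groups. By label, 49 members were on in DJ groups only, 55 in NIP groups only and 25 in groups of both labels.

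**Figure D2:**
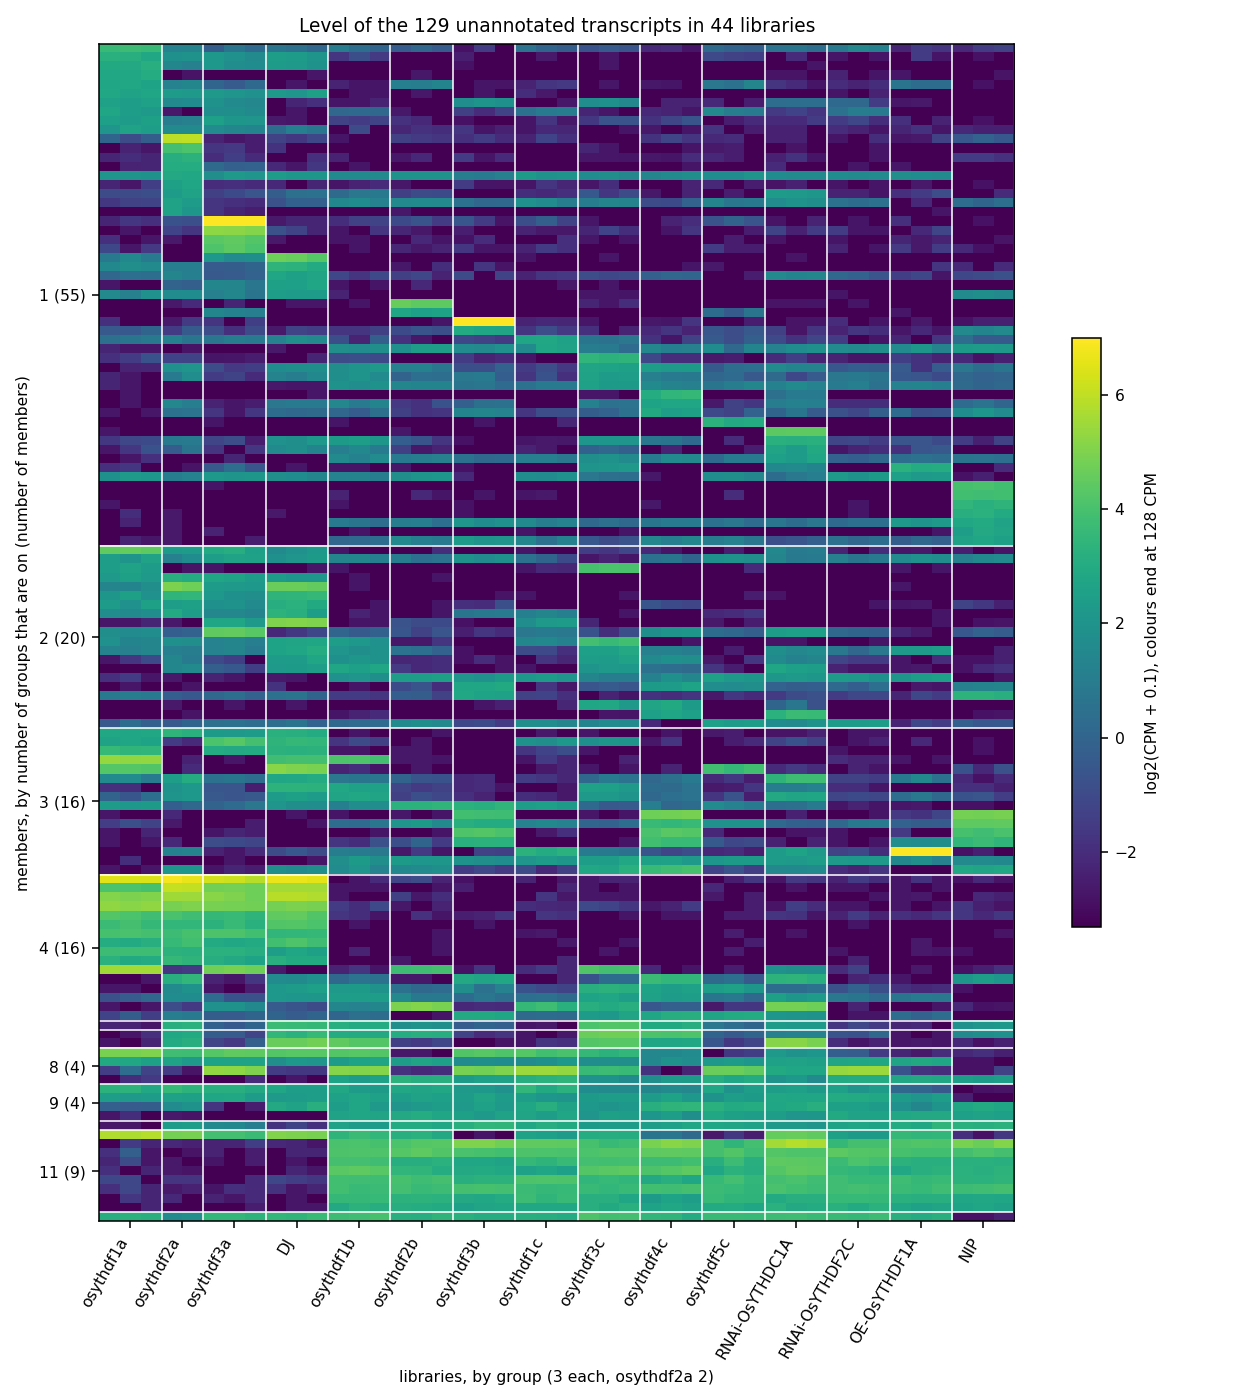
Level of each member (row) in each of 44 libraries (columns, by group) as log2(CPM + 0.1), with rows ordered by the number of groups that are on and colours capped at the top of the bar. Blocks of rows are bright in all libraries of the 4 DJ groups or of the 11 NIP groups, and many rows are bright in the libraries of 1 group.

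The most frequent sets of more than 1 group followed the labelled background. Exactly the 4 DJ groups were on for 10 members, and exactly the 11 NIP groups for 8. Both counts were higher with on at 1 CPM, at 19 and 14. These sets are defined by the split and the rule used the same states, so the counts are a description. Most members split the groups in other ways.

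Within a set, members were ranked by their mean over the groups that were on. By that mean Novel7706, of 1025 bases, was the highest of the DJ set. It had 92.4, 85.4 and 87.7 CPM in osythdf1a and 116 and 99.6 CPM in osythdf2a. In osythdf3a it had 79.3, 73.3 and 60.1 CPM, the last value from the library that stood apart. The DJ libraries had 103, 104 and 96.1 CPM, against 0.0420, 0.129 and 0.0440 CPM in the NIP libraries. No NIP group averaged above 0.288 CPM, so all DJ libraries stood far above all NIP libraries. The mean was 1410-fold higher in the DJ wild type than in the NIP wild type, a rough ratio that rests on 5 counts over the NIP libraries.

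Novel17792, the second highest of that set, had 34.2, 31.4 and 33.1 CPM in osythdf1a, 46.1 and 45.3 CPM in osythdf2a, 35.7, 32.4 and 25.9 CPM in osythdf3a and 59.3, 59.2 and 54.2 CPM in DJ. In NIP it had 0, 0.129 and 0.0880 CPM, and the highest mean of a NIP line was 0.167 CPM. Its DJ wild type libraries lay above those of all 3 DJ lines. Of the 10 members, 6 were off in every NIP group: Novel4801, Novel7425, Novel10014, Novel11955, Novel23292 and Novel25789. By the same mean Novel4801 and Novel7425 were the highest of these 6. Novel4801 averaged 16.6 CPM in osythdf1a, 67.8 in osythdf2a, 27.7 in osythdf3a and 47.9 in DJ, with no count in the NIP wild type, so DJ was at least 1112-fold higher, with a floor of 3 counts summed over the NIP libraries. Novel7425 kept a narrower range over the DJ groups, with 16.0, 14.6, 16.5 and 11.3 CPM in osythdf1a, osythdf2a, osythdf3a and DJ, against 0.0147 CPM in NIP.

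In the NIP set, Novel25796 was the highest and the most variable. Its means in the 4 DJ groups were between 0.0952 and 0.163 CPM, with 0.122, 0.110 and 0.0538 CPM in the DJ wild type libraries. In the NIP groups it had 47.5, 57.3 and 51.4 CPM in RNAi-OsYTHDC1A and 15.3, 10.6 and 14.9 CPM in osythdf5c, against 30.7, 25.8 and 33.4 CPM in the NIP wild type. Novel6624, the second, was the steadier, with 21.4, 22.5 and 21.5 CPM in osythdf4c as its highest line and 15.7, 14.4 and 14.5 CPM in OE-OsYTHDF1A as its lowest. It stood at 0, 0.110 and 0.108 CPM in DJ, against 15.5, 17.6 and 15.4 CPM in NIP.

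Only Novel8809 and Novel17846 were on in all 11 NIP groups and off in all 4 DJ groups. Novel8809 had 0, 0.110 and 0.0538 CPM in the DJ wild type. It had 20.3, 21.5 and 20.1 CPM in osythdf1b and 18.8, 22.3 and 21.0 CPM in RNAi-OsYTHDC1A, against 9.58, 8.79 and 10.0 CPM in NIP. Novel17846 had at most 1 count in each DJ wild type library and was flat across the NIP groups, with means between 6.23 and 8.93 CPM.

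Among the members, the wild types stood in opposite states more often than any other pair of groups. Of the members, 26 had DJ on and NIP off (0.363% of the 49058 measured features met this), and 19 had DJ off and NIP on (0.183%). As the rule used this contrast, nothing is read from these shares. The highest members were Novel7706 and Novel17792 in the first direction, and Novel25796 and Novel23436 in the second. Both wild types were off for 23 members and neither was on for 65, so for 65 of 129 members the only on states were in mutant, knockdown or overexpression lines. Not on includes low, and both wild types were below 1 CPM for only 33 members. Many of the 65 were thus present in a wild type at 1 to 5 CPM. Novel18499 was the only member on in both.

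The same members were followed into the lines, beside all features with the same split of the wild types. Among the 26 members that DJ had on and NIP off, osythdf1a had 14 on (53.8%) and 4 off, against 30.9% on among the 178 features with that split. In osythdf2a 14 were on (53.8%) and 4 off, against 62.9% on among all such features. In osythdf3a 13 were on and 2 off, with and without its replicate 3, against 34.3% on among all. In the 10 NIP lines between 1 and 6 of the 26 were on (3.85% to 23.1%), most in osythdf3c, against 5.62% to 42.7% among all. Of the 19 members on in NIP and off in DJ, none was on in a DJ line, and of the 90 features with that split 0 to 3.33% were. In the NIP lines between 6 and 12 of the 19 were on (31.6% to 63.2%), with 12 in osythdf3b and 10 in osythdf4c, against 43.3% to 71.1% among all. The members were chosen by these states and are part of all such features, so nothing particular to them is read from the shares.

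The NIP wild type alone had 5 members on with all other 14 groups off, namely Novel8900, Novel9163, Novel9261, Novel24166 and Novel29587. Novel9163, of 1551 bases, had no count in any library of the 10 NIP lines or of DJ, against 383, 375 and 327 counts in the NIP libraries (16.1, 16.2 and 14.4 CPM). With 3 counts over the group as the floor, it was at least 224-fold lower in osythdf5c, the line with the smallest bound, and at least 337-fold lower in osythdf3b, the line with the largest. Novel8900, of 657 bases, had 0, 0.119 and 0.0505 CPM in osythdf2b, for example, against 14.7, 14.3 and 14.6 CPM in NIP. Novel24166 averaged 10.3 ± 0.86 CPM in NIP, Novel29587 8.81 ± 0.79 CPM and Novel9261 6.42 ± 0.95 CPM (SD, n = 3 each). No library of another group came near these values. Novel7415 and Novel30556 were also on in NIP alone, but less than 2-fold above their next groups. Novel7415 averaged 4.36 CPM in osythdf3b, against 6.19 CPM in NIP, and Novel30556 4.44 CPM in OE-OsYTHDF1A, against 7.06 CPM in NIP.

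The reverse was seen for 4 members that were at 1 CPM or more in all groups but the NIP wild type, where they were off: Novel6486, Novel6580, Novel8021 and Novel8618. Novel6486, of 4422 bases, was the only member on in 13 groups. It had 17.1, 14.7 and 15.2 CPM in osythdf3c, its highest group, and 2.91 and 3.33 CPM in osythdf2a, its lowest besides NIP, against 0.0420, 0.0431 and 0.0880 CPM in NIP. Novel8021 had 7.96, 7.85 and 7.13 CPM in RNAi-OsYTHDF2C and 5.47, 4.17 and 4.01 CPM in osythdf1c, its lowest line, against 0.0840, 0 and 0 CPM in NIP. Novel6580 ranged between 3.23 and 6.97 CPM over the other groups and Novel8618 between 2.01 and 7.22 CPM. The groups did not overlap with NIP for any of the 4. Novel8682 and Novel8838 were likewise off in NIP and at 1 CPM or more in all 10 NIP lines, but not in all DJ groups. The 7 members on in NIP alone and these 6 were chosen for naming after their values were seen, except Novel8900 and Novel9163.

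**Figure D3:**
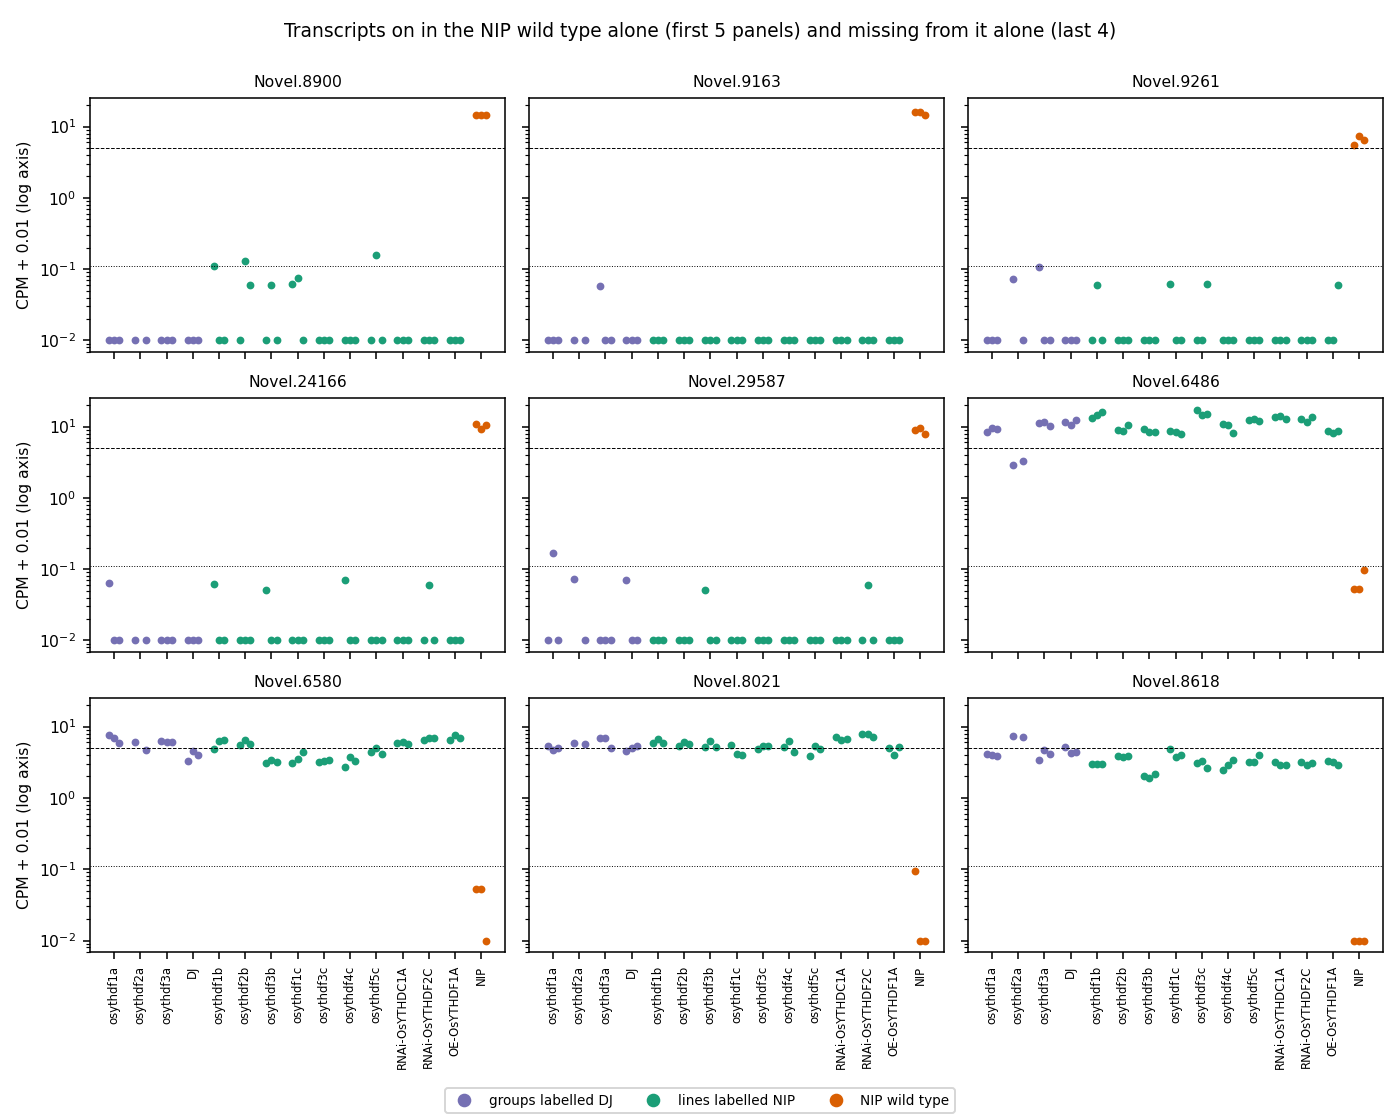
Level of 9 members in every library, as CPM + 0.01 on a log axis, with the on and off thresholds as dashed and dotted lines. The first 5 members are on in NIP with all other groups off, and the last 4 are at 1 CPM or more in all groups except the NIP wild type.

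Exactly osythdf3b, osythdf4c and the NIP wild type were on for 4 members, Novel18051, Novel23436, Novel25913 and Novel29696. Novel23436, the highest, had 14.6, 14.0 and 13.6 CPM in osythdf3b and 26.3, 27.5 and 29.6 CPM in osythdf4c, against 28.4, 27.6 and 29.3 CPM in NIP. Its next group, OE-OsYTHDF1A, had 0.225, 0.184 and 0.347 CPM, and osythdf1c had no count. Novel18051, of 603 bases, had 17.6, 18.7 and 16.2 CPM in osythdf3b and 16.3, 20.6 and 18.6 CPM in osythdf4c, against 16.0, 14.3 and 16.2 CPM in NIP. The remaining 12 groups were all off for it, none above 0.0779 CPM. Novel23436 was not on in any other NIP line either, with at most 0.252 CPM there. Of the 1001 locus features that met the rule, 8 (0.799%) were also on in exactly osythdf3b, osythdf4c and NIP, against 3.10% of the members. That difference was not tested.

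The set of osythdf2a and the DJ wild type also held 4 members, tied with the set above in size, with Novel25714 and Novel29960 as the highest. Novel25714 had 31.0 and 26.1 CPM in osythdf2a, against 25.1, 25.5 and 23.1 CPM in DJ. In osythdf1a it had 2.48, 2.40 and 3.38 CPM and in osythdf3a 5.06, 4.67 and 4.42 CPM, and NIP had no count. Novel29960 averaged 11.04 CPM in osythdf2a and 10.9 CPM in DJ, with 4.58 CPM in osythdf1a and 3.80 CPM in osythdf3a. In both cases osythdf2a lay with its wild type and the other 2 DJ lines were lower without being off.

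On in a single group were 10 members for osythdf1a, 9 for osythdf2a, 4 for osythdf3a and 5 for DJ. Without replicate 3 of osythdf3a its count was 5, as Novel28635 reached the on threshold, with a mean of 5.28 CPM there against 4.93 CPM over all 3 libraries. Among NIP groups osythdf3c and RNAi-OsYTHDC1A 4 each, osythdf4c 3, osythdf2b, osythdf3b, osythdf1c and OE-OsYTHDF1A 2 each and osythdf5c 1, against 7 in the NIP wild type. For osythdf1b and RNAi-OsYTHDF2C there was none. These 55 members were mostly modest: 39 stayed under 10 CPM, and 31 were less than 5-fold above their next group. At least 10-fold above the next group were 20, and 9 were off in all others. At 1 CPM, 21 remained confined to their group.

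The highest single-group member was Novel9435 in osythdf3a, of 1432 bases. It had 29226, 25082 and 17605 counts in the osythdf3a libraries, a mean of 1356 ± 105 CPM (SD, n = 3), against 1, 2 and 2 counts in the DJ libraries. Without replicate 3 of osythdf3a the mean was 1417 CPM, and that library alone had 1235 CPM. The next group was osythdf5c, with 8, 12 and 8 counts (0.656 CPM). Per length it was also the highest of all members, at 947 FPKM (a fragment count scaled by transcript length and library depth). Novel20955 had 38.0, 36.6 and 33.8 CPM in osythdf3a and 0.488, 0.329 and 0.108 CPM in DJ. Novel17749 and Novel6870 averaged 20.3 and 18.5 CPM in osythdf3a and 21.1 and 19.4 CPM without its replicate 3, with 1 and 0 counts over the DJ group, and were named after their values were seen.

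In osythdf3b, Novel15949, of 1003 bases, had 192, 192 and 187 CPM, against 0.0420, 0.0861 and 0.0880 CPM in NIP. Its next group was osythdf3a at 0.158 CPM, so no other group came near the level of this line. The mean was 2641-fold higher in osythdf3b than in NIP, a ratio that rests on 5 counts over the NIP libraries and is rough. Novel15509, the second of the line, was at 7.03 CPM, against 2.67 CPM in NIP.

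Among the other DJ lines, Novel1184 had 62.7 and 64.0 CPM in osythdf2a, against 0.305, 0.219 and 0.377 CPM in DJ. Its next group was the NIP wild type, with 0.588, 0.861 and 0.616 CPM. Novel8937 had 15.2 and 16.6 CPM in osythdf2a, against 3, 0 and 0 counts in DJ. Neither overlapped with any other group. In osythdf1a the highest, Novel12055 with 12.5, 13.5 and 12.2 CPM, was only 5.48-fold above its next group, osythdf2a, and had 1.46, 1.32 and 0.969 CPM in DJ. Novel6794 followed at 8.52 CPM in osythdf1a, against 4.82 CPM in DJ. Novel16856, named after its values were seen, was the only member of osythdf1a with all other groups off, at 7.12, 7.14 and 8.39 CPM against 0, 0 and 0.0538 CPM in DJ. The DJ wild type itself was alone on for Novel9833, which averaged 2.10 CPM in osythdf1a and 3.64 CPM in osythdf3a and had no count in osythdf2a, against 26.3, 24.3 and 19.5 CPM in DJ. Novel6434 was the second, with 3.02 CPM in osythdf1a, against 9.33 CPM in DJ.

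RNAi-OsYTHDC1A had 443, 465 and 440 counts of Novel28071 (21.1, 21.4 and 21.7 CPM), and NIP had none. All other groups were off for this transcript of 894 bases, and the line was at least 497-fold higher than NIP by the floor of 3 counts over the group. Novel5966 had 23.9, 21.7 and 21.3 CPM in osythdf2b and no count in NIP, at least 518-fold higher in the line, and its next group, osythdf3c, had 0.106 CPM. Novel1660 had 9.80, 7.38 and 7.95 CPM in osythdf5c and no count in NIP, with all other groups off. These 3 transcripts were in every library of their line and in no NIP library at this depth.

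Novel10967 had 11.2, 9.69 and 10.4 CPM in osythdf3c, against 0.126, 0.0431 and 0.0880 CPM in NIP. Novel15014 had 8.30, 10.98 and 11.6 CPM in osythdf4c and no count in NIP, but RNAi-OsYTHDC1A held 1.63 CPM. The other transcripts that were highest in their line were less than 3-fold above their next group. Novel22753 was at 9.15 CPM in RNAi-OsYTHDC1A with 4.88 CPM in osythdf1b, and Novel23262 at 6.11 CPM in osythdf3c with 4.95 CPM in osythdf4c. Novel27824 was at 6.50 CPM in osythdf4c with 2.35 CPM in osythdf2a, and Novel11536 at 6.17 CPM in osythdf2b with 2.27 CPM in osythdf3a. Novel26154 was at 6.46 CPM in osythdf1c with 2.78 CPM in DJ, and Novel8751 at 5.17 CPM there with 4.80 CPM in NIP. In OE-OsYTHDF1A, Novel15537 was at 8.62 CPM with 4.27 CPM in osythdf3c, and Novel17614 at 5.11 CPM with 4.43 CPM in RNAi-OsYTHDF2C. For such members the label of a single group rests on where the threshold lies.

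The 25 members on in groups of both labels were unevenly spread. Among the lines osythdf1b and osythdf3c had 15 each on, RNAi-OsYTHDC1A 12, osythdf2a 11 and OE-OsYTHDF1A 4. The DJ wild type had 17 on, the most of any group, and the NIP wild type 2, the fewest. The members described next were chosen after their values were seen. Novel11537, of 2709 bases, was on in 6 groups: it had 34.8, 36.1 and 30.4 CPM in RNAi-OsYTHDC1A, 22.0, 18.8 and 19.0 CPM in osythdf1b, 18.7, 19.6 and 19.9 CPM in osythdf3c and 6.84, 6.77 and 7.20 CPM in osythdf4c, against 0.126, 0.0431 and 0.0880 CPM in NIP. On the DJ side it had 7.84 and 8.75 CPM in osythdf2a, 0.0539, 0 and 0.113 CPM in osythdf1a and 0.341, 0.225 and 0.771 CPM in osythdf3a, against 24.4, 24.4 and 28.0 CPM in DJ. It was thus present in 4 lines whose wild type lacked it and off in 1 line, osythdf1a, whose wild type had it.

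Novel24629 had 46.2, 47.4 and 47.3 CPM in osythdf1a and 26.7, 29.4 and 26.2 CPM in osythdf3a, against 1, 0 and 0 counts in DJ. In the NIP lines it had 13.7, 14.1 and 15.3 CPM in osythdf2b and 18.0, 15.1 and 15.7 CPM in osythdf3c, against 1, 2 and 4 counts in NIP. It was off in DJ and, with a mean of 0.101 CPM, just above the off threshold in NIP. The 4 lines were the only groups on, and RNAi-OsYTHDC1A held 3.42 CPM.

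Novel2654 had 40.8, 39.3 and 39.7 CPM in osythdf1a, 0 and 0.0951 CPM in osythdf2a and 0, 0.0562 and 0 CPM in osythdf3a, against 14.0, 15.4 and 14.8 CPM in DJ. On the NIP side osythdf1b alone was on, with 17.2, 17.8 and 15.03 CPM, against no count in NIP. Novel8042 had 19.3, 19.1 and 18.5 CPM in osythdf1a and no count in osythdf3a, against 35.6, 32.2 and 30.2 CPM in DJ, and it was on in osythdf5c with 14.4, 11.7 and 14.4 CPM, against 0.504, 0.129 and 0.484 CPM in NIP. At both transcripts lines of 1 label stood in opposite states.

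Novel28643, of 2417 bases, was on in 8 groups and off in 1. It had 43.6, 43.3 and 40.3 CPM in osythdf1c, 41.8, 43.1 and 43.5 CPM in RNAi-OsYTHDF2C and 0.182, 0 and 0.0993 CPM in osythdf4c, against 0.0420, 0.0431 and 0.308 CPM in NIP. In osythdf3a it had 39.9, 38.3 and 31.9 CPM, against 0.244, 0.219 and 0.215 CPM in DJ. Novel28943, of 5826 bases, was on in 3 NIP lines: it had 135, 136 and 138 CPM in OE-OsYTHDF1A, 9.71, 8.08 and 9.44 CPM in osythdf1c and 4.99, 6.20 and 4.59 CPM in RNAi-OsYTHDC1A, against 0.0420, 0.0861 and 0 CPM in NIP. The line OE-OsYTHDF1A held the highest level by more than 10-fold.

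Each line was then set against the wild type of its label. Summed over 13 comparisons, the members were on in the line and off in the wild type 88 times, over 42 different members. All measured features, members included, met this 575 times in 637754 (0.0902%). The members were off in the line and on in the wild type 86 times, over 21 different members. All measured features met that 585 times (0.0917%). The rule used these contrasts, so the percentages are printed as the background and nothing is read from them. The second direction rested on fewer transcripts, and the 5 members on in the NIP wild type with all other groups off are among them.

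Percentages in brackets here and for the NIP lines are the shares of all measured features, members included, that met the same states. For osythdf1a, 7 members were on with DJ off (0.0183%) and 6 were off with DJ on (0.406%). For osythdf2a the numbers were 4 (0.0448%) and 5 (0.0122%). For osythdf3a they were 4 (0.0326%) and 4 (0.0591%), and 4 and 4 without its replicate 3.

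Among the NIP lines, osythdf3c had the most members on with NIP off, 13 (0.23%), and 9 the other way (0.0775%). RNAi-OsYTHDC1A followed with 11 (0.218%) and 8 (0.0591%), osythdf2b with 9 (0.0713%) and 7 (0.0489%) and osythdf4c with 9 (0.0897%) and 5 (0.0428%). The counts were 7 (0.21%) and 7 (0.0591%) in osythdf1b, 6 (0.053%) and 7 (0.157%) in OE-OsYTHDF1A, 5 (0.0408%) and 5 (0.0285%) in osythdf3b, 5 (0.0652%) and 8 (0.118%) in osythdf1c and 5 (0.053%) and 7 (0.0489%) in osythdf5c. RNAi-OsYTHDF2C had the fewest on, 3 (0.0448%), with 8 off (0.0754%). These 3 were Novel6486, Novel6580 and Novel8021, which were at 1 CPM or more in every group except the NIP wild type.

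The NIP wild type stood apart from all 10 NIP lines at 11 members. Of these, 5 were on there and off in all these lines. The other 6 were off there and at 1 CPM or more in all the lines. The same count over all features was not made, so nothing particular to the members is read from it. The 5 gave 50 of the 86 cases off in a line, and all 5 cases in osythdf3b and in osythdf4c. The 6 gave 28 of the 88 cases on in a line, between 1 and 4 per line. Without these 11 members, osythdf3c had 10 on and 4 off, RNAi-OsYTHDC1A 7 and 3, osythdf4c 6 and 0 and osythdf2b 5 and 2. The counts were 4 on and 3 off in osythdf1c, 4 and 2 in osythdf5c, 3 and 2 in osythdf1b and OE-OsYTHDF1A, 3 and 0 in osythdf3b and 0 and 3 in RNAi-OsYTHDF2C.

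The same count was made for all 105 pairs of groups, with the share of the 49058 measured features in opposite states beside it. Between groups of different label, 22 to 45 members were on in 1 and off in the other, with a median of 30.5 over 44 pairs (0.181% to 0.799% of measured features, median 0.336%). Between DJ groups the range was 5 to 14 members, with a median of 8.5 over 6 pairs (0.0428% to 0.424%, median 0.0887%). The counts of osythdf3a with the other DJ groups were 5 to 8, and 6 to 8 without its replicate 3. Between NIP groups the range was 1 to 22 members, with a median of 7 over 55 pairs (0.0224% to 0.540%, median 0.0917%). The highest count was that of DJ against NIP, 45, and the lowest was 1, for RNAi-OsYTHDF2C with OE-OsYTHDF1A and with osythdf1b. The NIP wild type and its lines were in opposite states at 10 members (osythdf3b) to 22 members (osythdf3c), or 0.0693% to 0.308% of measured features. The NIP lines with each other were so at 1 to 14 members, or 0.0224% to 0.540%. The rule chose the members by these states and the pairs share groups, so the counts are a description and nothing is read from them.

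**Figure D4:**
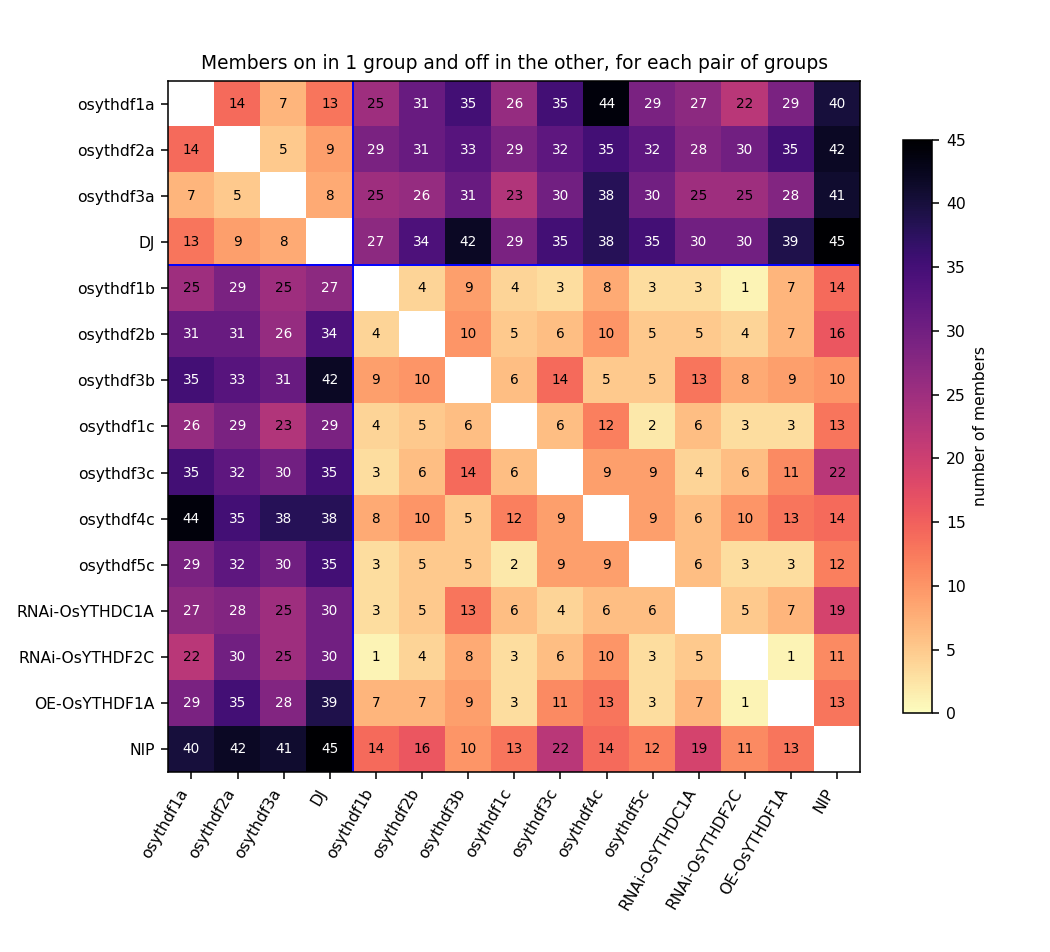
Number of members that were on in 1 group and off in the other, for each pair of the 15 groups, with blue lines between groups labelled DJ and NIP. Counts are 22 to 45 between labels, 5 to 14 among DJ groups and 1 to 22 among NIP groups, with 10 to 22 between the NIP wild type and its lines.

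Where a member was on in both a line and its wild type, the rule had not used the difference between them, so it was tested with edgeR's quasi-likelihood test, with p-values adjusted over all features of the fit. There were 179 such cases over 46 members. Of these, 110 (61.5%) passed an adjusted p under 0.05, 54 higher and 56 lower in the line, and 69 did not. Of all features on in both groups, 72.3% passed, 35.2% higher and 37.1% lower in the line. The members' share was lower, but the sets were not matched for level and the difference was not tested. A member could also enter up to 10 times against the same NIP libraries, so nothing is read from the difference. The log2 fold changes ran from -2.18 to 1.69 with a median size of 0.36, and 13 of the 110 were at least 2-fold, 3 higher and 10 lower. The 10 falls hold Novel25796 and Novel25913 more than once, against the same NIP libraries, and the 3 rises were all in osythdf1a. No lean in direction is read from this split. Fold changes are after TMM scaling, which corrects for the composition of a library, and so do not equal the ratio of the CPM values. Library totals in place of TMM shifted them by -0.25 to 0.31, most in RNAi-OsYTHDC1A, and the split of calls was then 60 higher and 55 lower.

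Percentages in brackets are the same shares over all features on in both groups. In osythdf1a 14 of 19 members were called against DJ (81.5%), 9 higher (48.2%) and 5 lower (33.3%). In osythdf2a 15 of 22 were called (57.2%), 5 higher (17.1%) and 10 lower (40.1%). In osythdf3a 14 of 17 were called (77.1%), 6 higher (46.8%) and 8 lower (30.3%), and the counts were the same without its replicate 3.

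Among the NIP lines, osythdf1b had 8 of 12 called (82.4%), 4 higher (36.3%) and 4 lower (46.1%), and osythdf2b 6 of 11 (72.2%), 3 higher (32.4%) and 3 lower (39.9%). In osythdf3b 5 of 17 were called (45.3%), none higher (25.8%) and 5 lower (19.5%). In osythdf1c 8 of 12 were called (75.2%), 4 higher (37.9%) and 4 lower (37.3%). The direction was thus evenly split in 3 of these lines and all downward in osythdf3b. In osythdf3c 6 of 10 were called (83.9%), 2 higher (38.5%) and 4 lower (45.4%). In osythdf4c 10 of 15 were called (73.1%), 5 higher (35%) and 5 lower (38.1%), and in osythdf5c 6 of 12 (71.9%), 3 higher (35.1%) and 3 lower (36.7%). RNAi-OsYTHDC1A had 5 of 9 called (77.8%), 4 higher (32.2%) and 1 lower (45.6%). RNAi-OsYTHDF2C had 8 of 12 (74.3%), 5 higher (36.2%) and 3 lower (38.2%), and OE-OsYTHDF1A 5 of 11 (70%), 4 higher (39.2%) and 1 lower (30.8%). The line with the smallest share called among all features, osythdf3b, also had the smallest share among its members.

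Novel25546, Novel11537, Novel2654, Novel23292, Novel7440, Novel1478, Novel25913, Novel29696 and Novel18499 were chosen for naming after their values were seen. Among the cases on in both groups, the largest fall was that of Novel25546 in osythdf3a. It had 6.52, 6.86 and 4.56 CPM there, against 32.3, 33.4 and 32.0 CPM in DJ. The log2 fold change was -2.18 (SE 0.10, adjusted p = 1.8e-26, edgeR quasi-likelihood test, Benjamini-Hochberg adjusted), and -2.09 without replicate 3. The same transcript was off in osythdf1a and osythdf2a. Novel11537 fell in osythdf2a, with 7.84 and 8.75 CPM against 24.4, 24.4 and 28.0 CPM in DJ. There the log2 fold change was -1.72 (SE 0.12, adjusted p = 5.4e-17, same edgeR test). In both cases the line lay below its wild type in every library.

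Among the members on in both osythdf1a and DJ, Novel2654 rose most in osythdf1a, with 40.8, 39.3 and 39.7 CPM against 14.0, 15.4 and 14.8 CPM in DJ. The log2 fold change was 1.69 (SE 0.08, adjusted p = 1.2e-26, edgeR quasi-likelihood test, Benjamini-Hochberg adjusted). Novel23292 had 13.5, 14.0 and 13.8 CPM in that line, against 5.43, 6.63 and 5.71 CPM in DJ, a log2 fold change of 1.46 (SE 0.11). Novel4801 fell there, to 17.0, 16.8 and 16.0 CPM against 48.0, 48.0 and 47.5 CPM in DJ, with a log2 fold change of -1.28 (SE 0.06). It rose in osythdf2a, where it had 68.9 and 66.7 CPM (log2 fold change 0.40). Novel4801 thus moved in opposite directions in these 2 lines.

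Novel25796 was tested in all 10 NIP lines and was called in 8, lower in 7 and higher in 1. The fall was largest in osythdf3c, with 16.1, 12.4 and 13.6 CPM against 30.7, 25.8 and 33.4 CPM in NIP (log2 fold change -1.38, SE 0.12, adjusted p = 1.1e-10, edgeR quasi-likelihood test, Benjamini-Hochberg adjusted). The log2 fold change was -1.18 in RNAi-OsYTHDF2C, -1.15 in osythdf5c and -1.12 in osythdf1b. These lines share the NIP libraries. Novel7440 was called in 6 of 10 lines and Novel1478 in 6 of the 8 where line and wild type were on, each time lower in the line. Under library totals the log2 fold change of Novel7440 in RNAi-OsYTHDC1A was 0.05 and was not called, while it was -0.26 with TMM. Novel17846 was called in only 1 of 10, RNAi-OsYTHDF2C.

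Novel25913 fell in both lines that shared its on state with the NIP wild type. It had 8.67, 8.07 and 8.05 CPM in osythdf3b and 12.2, 11.2 and 12.2 CPM in osythdf4c, against 21.5, 21.8 and 22.0 CPM in NIP. The log2 fold changes were -1.32 in osythdf3b (SE 0.10) and -1.03 in osythdf4c (SE 0.10). Novel23436 fell in osythdf3b (log2 fold change -0.94, SE 0.09), and its fall in osythdf4c was slight (-0.18, SE 0.08, adjusted p = 0.048, edgeR quasi-likelihood test, Benjamini-Hochberg adjusted) and was not called under 12 of 39 alternative settings. For Novel18051 and Novel29696 neither line was called against NIP, and the log2 fold changes of Novel18051 were 0.25 and 0.11 (SE 0.11 each). Of 39 alternative settings, 3 called Novel18051 in osythdf3b and 1 in osythdf4c, and 1 called Novel29696 in osythdf3b. The members of this set were therefore called to different extents, from none to both lines.

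**Figure D5:**
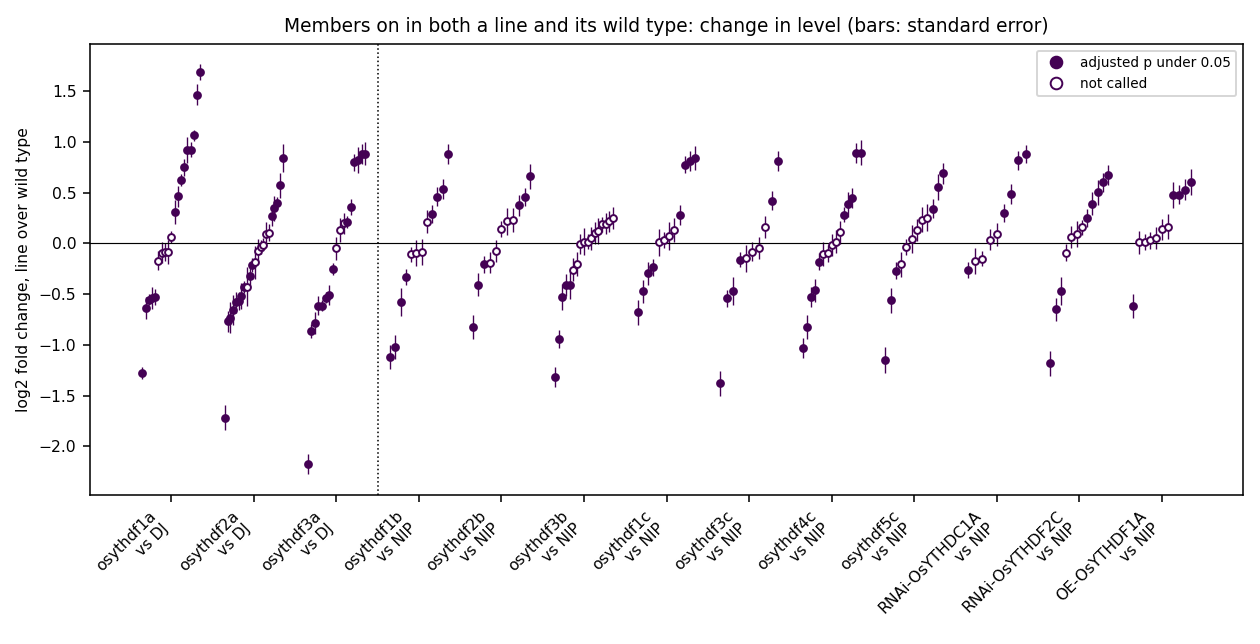
Log2 fold change of each member that was on in both a line and its wild type, with its standard error, for 13 comparisons (line over wild type). Filled points passed an adjusted p under 0.05 and open points did not; osythdf3b has no filled point above 0.

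The wild types could be compared this way for Novel18499 alone. It had 7.38, 6.14 and 8.88 CPM in DJ, against 6.64, 7.88 and 6.60 CPM in NIP, so the libraries overlapped. The log2 fold change was -0.21 after TMM scaling (SE 0.14, unadjusted p = 0.14, adjusted p = 0.17, edgeR quasi-likelihood test, Benjamini-Hochberg adjusted), and DESeq2 did not call it either. Over 12 alternative settings the log2 fold change ran from -0.36 to 0.09 and the adjusted p from 0.034 to 0.65, and it was called without replicate 3 of DJ. Of all features on in both wild types, 81.8% passed the test, 33.1% higher and 48.7% lower in DJ.

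In length the members ran from 208 to 5962 bases, with a median of 1569, and 103 of 129 had at least 1000 bases. Other unannotated transcripts that reached 5 CPM had a median of 1983 bases, those with any count 1048 and features with a locus ID 1496. The members' highest group mean had a median of 10.1 CPM, with 61 under 10 CPM and 4 at 100 CPM or more. Per length, the highest group mean had a median of 6.98 FPKM. After Novel9435 the highest were Novel15949 (190 FPKM in osythdf3b), Novel7706 (105 FPKM in osythdf2a) and Novel6870 (89.1 FPKM in osythdf3a). Novel6870, the shortest member at 208 bases, thus ranked higher per length than by its 18.5 CPM.

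Set beside the 1001 locus features that met the same rule, the members had a somewhat larger share on in a single group (42.6%, against 32.6%). They also had more on in exactly the 4 DJ groups (7.75%, against 2.70%), in exactly the 11 NIP groups (6.20%, against 2.80%) and in the NIP wild type alone (5.43%, against 2.30%). The members had fewer that were on in 2 or more of osythdf2a, DJ, osythdf1b, osythdf3c, osythdf4c and RNAi-OsYTHDC1A and nowhere else (17 members or 13.2%, against 293 locus features or 29.3%). That set of 6 groups was chosen after the states were seen, these shares were not tested, and features of 1 region may share a state.

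The choice of members has an edge. Just inside it, the lowest highest mean was 5.09 CPM, for Novel8698, and the highest lowest mean 0.0979 CPM, for Novel12055. Just outside it, Novel28635 reached 4.93 CPM and Novel23337 fell no lower than 0.107 CPM.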

How the data were processed

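Paired-end RNA-seq libraries were made from DNase-treated total RNA with a NEBNext Ultra kit, per the labels' protocols. Per the submitters' processing notes, HISAT2, featureCounts and IRGSP-1.0 were used; their versions, the strand setting and the assembly of the unannotated transcripts are not described in the sources used here. The authors deposited a table of counts and a table of FPKM values over 58089 features. In each, 40 columns match no sample and were not used.

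CPM was computed from the counts and column totals. The members and lists were chosen with earlier results of these data known. Members on in both a line and its wild type were tested in R 4.3.3 with the edgeR 4.0.16 package (TMM, filterByExpr, robust quasi-likelihood, Benjamini-Hochberg over all features, threshold 0.05). Separate fits held 33 libraries labelled NIP (27584 features), 11 labelled DJ (26925) and all 44 for DJ against NIP (28833). IDs are written without the point before the number. The scripts were tested on simulated data. DESeq2 1.42.0, other size factors, filters and left-out libraries were alternatives.

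Named transcripts are the 2 highest of each single group, of the 3 most frequent larger sets, of the sets on in all groups of 1 label and off in the other, and of the wild type splits, and those nearest the thresholds. Others are said to have been named after their values were seen. Intervals and floors, with 3 counts over a group as the floor, cover counting error only.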

Additional observations from a re-analysis of the deposited data

How the results depend on the processing

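The number of members depended mainly on the on threshold. With on at 2 CPM there were 260 members in 115 sets, 91 of them on in a single group, with 204 cases on in a line and off in its wild type and 158 the other way. With on at 10 CPM there were 68 members in 33 sets, 34 of them in a single group, with 28 cases on in a line and off in its wild type. Where every library had to pass, there were 105 members and 56 such cases. With 1 CPM for the set, 21 members were on in a single group. TMM library sizes gave 122 members (120 of the 129 among them), DESeq2 size factors 121 (119 of the 129), off below 0.05 CPM 113 and off below 0.2 CPM 148. Leaving out each library in turn gave 127 to 131 members, 60 to 63 sets, 53 to 56 members in a single group, 83 to 100 cases on in the line and 84 to 87 off in the line.

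The 110 calls among members on in both a line and its wild type became 104 with DESeq2, 108 with its size factors, 114 with no filter on low counts, 115 with only the compared groups fitted and 107 to 114 with a library left out. Library totals, added after seeing the data, gave 115. At least 2-fold were 13, and these kept direction and call under all 155 alternative values. Of the 110, 21 were not called under some setting and 3 changed sign, all 3 under library totals (Novel6624 in osythdf3c, Novel6639 in osythdf3a and Novel7440 in RNAi-OsYTHDC1A). Between the wild types the count was 0 to 1, with 1 without DJ replicate 3. With the replicate number as a block the calls were 111. The numbers share no stated source: the correlation of same-numbered libraries ran from -0.13 to 0.10 over 41 pairs, and 10 of 41 correlated best with their own number. Off states lie within a few counts per library, so levels below 0.1 CPM could not be ordered at this depth.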
